A study of Xenopus laevis with 13 samples.

Results

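The group described here is 200 array probes whose signal, present from the unfertilized egg through the blastula, fell most between stage 9 and stage 10.5, the step from the late blastula to the early gastrula of Xenopus laevis. To be chosen, a probe had to be well above background in the egg, at the 2-cell stage, at the 16-cell stage and at stages 8 and 9, and its normalized log2 level in the egg and at the 2-cell stage had to differ by less than 1. Of 43803 probes on the array, 13977 met these conditions, and the 200 with the largest fall were taken. The members were thus chosen by their measured levels at stages 9 and 10.5 and by their signal in the egg and on the early arrays. The 13977 probes are called the eligible probes. The samples were whole unfertilized eggs and whole embryos at 12 stages, from the 2-cell stage to the stage 40 tadpole, each hybridized once to a one-color Agilent array, with no replicate. The labels name no strain, genotype or treatment, and all embryos were dejellied and raised in dilute Steinberg's solution. Each stage gave a single RNA sample, collected from several eggs or embryos, so variation between single embryos was not measured. Levels are given as the log2 signal relative to the 75th percentile of the array, so that 0 marks the 75th percentile and a difference of 1 is a 2-fold change.

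An egg of Xenopus is laid with a store of messenger RNA made in the oocyte, and the first cleavages run on this store while the embryo's own genome is nearly silent. Transcription of the embryonic genome begins at the midblastula transition. Many maternal messages are then degraded, while others are kept or are replaced by new transcripts of the same gene. Gastrulation, in which the germ layers move into place, follows soon after. Because whole embryos were measured, less RNA per cell and fewer cells holding an RNA cannot be told apart.

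The array identifies each probe by a GenBank accession and not by a gene. The reference gene table held none of the 28256 accessions (0 matched), so no member could be given a gene name or a function. Members are therefore called by their rank in the fall, and 4 of them by accession, those with the 2 largest falls and the 2 largest later returns in the measured values. For 3 of these 4 the signal at stage 10.5 was not well above background, so that only a lower limit of the fall and of the return is known and their places in the order are not settled. The 200 members carried 149 accessions. Of these, 99 had 1 member, 49 had 2 and 1 had 3, so 101 members shared their target sequence record with another member and are not independent.

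Some facts of the whole series bear on these levels. A new slide began at stage 9, at stage 20 and at stage 40, giving 4 slides in all. The step that chose the members was therefore measured within 1 slide. The share of probes well above background was 58.96% in the egg, 63.9% to 66.4% from the 2-cell stage to stage 9, and 68.8% to 79.5% from stage 10.5 onward. The descriptions of 8 samples disagree with their titles about the stage, and the titles were followed. Single arrays allow no estimate of error, and a change between single arrays was called only by size, at 2-fold, with no test.

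The levels by which the members were selected are given as a description. From stage 9 to stage 10.5 the median member fell by 2.18 on the log2 scale, or 4.54-fold. The largest measured fall was 16.0-fold and the smallest 3.48-fold, with 136 members at 4-fold or more and 19 at 8-fold or more. In signal units, the median member went from 2501 at stage 9 to 418 at stage 10.5. Among the probes that the rule could have chosen, 6.9% were at least 2-fold lower at stage 10.5 than at stage 9, or 6.11% of all probes, and the median change was 0.0049 on the log2 scale. The limit fell in a continuous range. The 3 members just inside it changed by -1.809, -1.803 and -1.801 on the log2 scale, and the 3 probes just outside it by -1.797, -1.792 and -1.790. Scaling each array to its median instead lowered every change of this step by a further 0.48, and scaling to the spike-in probes, which bind RNA added during labeling, lowered it by a further 0.43. The direction of the fall was therefore the same on all 3 scales.

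At stage 10.5, 187 of the 200 members (93.5%) were well above background, against 99.6% of the eligible probes and 69.2% of all probes. For the other 13, only a lower limit of the fall can be given, taken against the dimmest signal called well above background on that array, and it ranged from at least 1.13-fold to at least 7.02-fold. The 7.02-fold belongs to the member of rank 24, whose stage 10.5 signal was brighter than that dimmest signal but still not well above background. Its limit is therefore its own measured fall and is not a firm one. For 8 of these 13 the limit was below the 3.48-fold of the last member taken, and for 3 it was below 2-fold. The spot of the member of rank 27 was marked as not uniform by the scanner software at stage 9, the array from which its fall was measured. Its level lay between -3.24 and -2.76 from the egg to stage 8, rose to 0.19 at stage 9 and returned to -2.54 at stage 10.5, after which it was higher on each array, up to 2.38 in the tadpole. This member stood apart from the other members by its rise from stage 8 to stage 9, and without the stage 9 array its level did not fall. The spot of 1 further member was marked as not uniform, in the egg.

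From the 2-cell stage to stage 9, the members were close to constant on this scale, as were the eligible probes. The median level of the members was 0.97 in the egg and 0.55 at the 2-cell stage. It was 0.45 at the 16-cell stage, 0.40 at stage 8 and 0.32 at stage 9, as the plot of median levels shows. The rule required the egg and the 2-cell stage to differ by less than 1, so nothing is read from that step. Over all probes, 40.9% were at least 2-fold lower at the 2-cell stage than in the egg and 14.4% higher. Relative to the spike-in probes, the log2 75th percentile was -3.07 in the egg and -1.44 at the 2-cell stage. Over the 4 arrays from the 2-cell stage to stage 9, the median member spanned 0.39 on the log2 scale, and 186 members (93%) spanned less than 1. Among all eligible probes, the median span was 0.35 and 96.1% spanned less than 1. From stage 8 to stage 9, 1 member was at least 2-fold lower, against 1.7% of the eligible probes and 3.71% of all probes. The member of rank 27 was the 1 member at least 2-fold higher, against 0.129% of the eligible probes and 2.09% of all probes. The number of all probes that fell by as much as the last member taken was 219 from the 2-cell to the 16-cell stage, 227 from there to stage 8, 345 between stages 8 and 9 and 619 between stages 9 and 10.5. Of the eligible probes, 0, 2, 12 and 200 did so in these steps. The rule required a signal above background on every array up to stage 9 of these eligible probes, which itself limits how far they could fall before then. Such large falls did not peak in the step that chose the members. For the steps ending at stages 12, 15 and 20 they numbered 1817, 2045 and 1054 over all probes. The eligible probes had 741, 818 and 269 of them. Each step after stage 20 had fewer than the chosen step, at most 565 over all probes and 115 over the eligible probes.

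**Figure D1:**
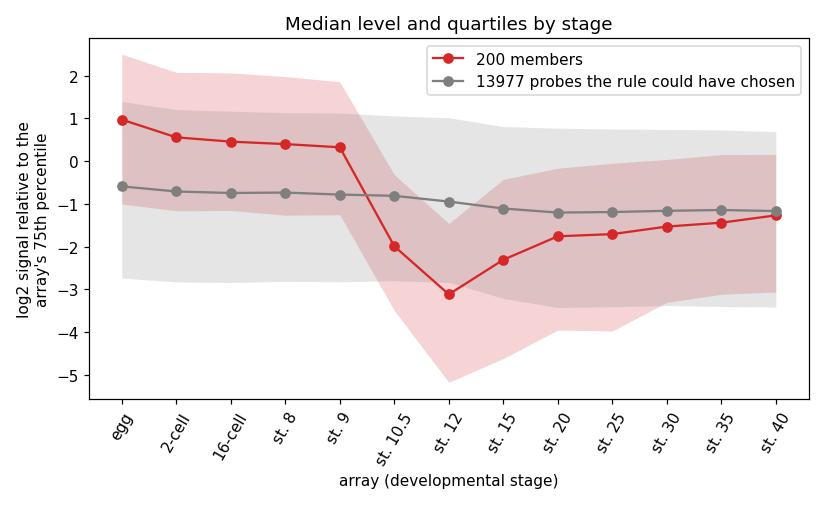
Normalized log2 level (vertical axis) on each of the 13 arrays (horizontal axis, by stage) for the 200 members and for the 13977 probes that the rule could have chosen; points are medians over probes and bands span the quartiles, not an error. The members lay above the others up to stage 9, dropped to a median of -1.99 at stage 10.5 and -3.12 at stage 12, and came back to -1.27 at stage 40, near the -1.17 of the others.

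The members included bright and dim probes. When the eligible probes were ranked by their level at stage 9 and split into 4 equal groups, 78 members lay in the brightest group, 55 and 40 in the middle groups and 27 in the dimmest. Their signals at stage 9 ran from 25.9 to 169370 units. The brightest was the member of rank 186, which fell 3.60-fold. Its normalized level was 7.0 in the egg, 6.39 to 6.41 from the 2-cell stage to stage 9, 4.56 at stage 10.5 and 2.75 at stage 12. It then stood higher on each later array than on the one before, at 3.16, 3.40, 3.95, 4.29, 4.61 and 4.78 from stage 15 to stage 40, and never regained its early level.

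The fall was next examined between arrays whose levels did not define it. From stage 8 to stage 12, 188 of the 200 members (94%) were at least 2-fold lower and 4 at least 2-fold higher. Over all probes 15.9% were at least 2-fold lower in this comparison and 25.1% higher, and over the eligible probes 22.8% and 15.0%. The median change was -3.62 on the log2 scale for the members, -0.02 for the eligible probes and 0.51 for all probes. Stage 8 entered the rule only through the requirement of a signal above background, and these arrays lie on different slides. Within the second slide, 154 members were at least 2-fold lower at stage 15 than at stage 9 and 8 at least 2-fold higher, against 34.6% and 20.4% of the eligible probes, although stage 9 was used by the rule.

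**Figure D2:**
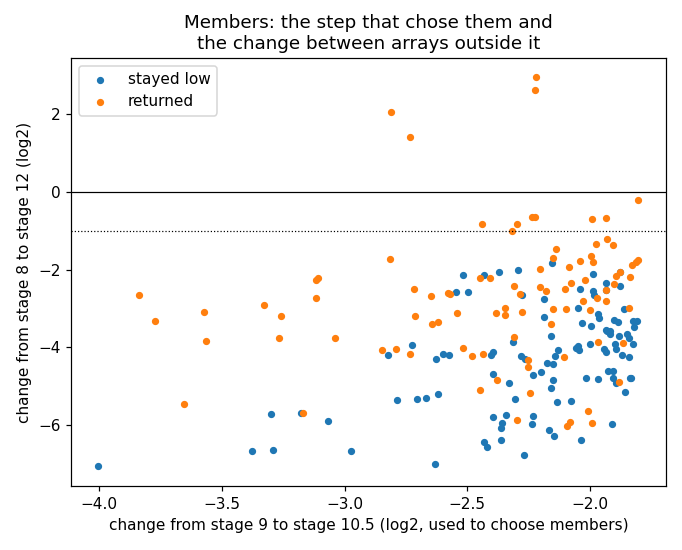
Each point is 1 of the 200 members, colored by whether it stayed low or returned after stage 12. The horizontal axis is the log2 change from stage 9 to stage 10.5, which chose the members, and the vertical axis the log2 change from stage 8 to stage 12; the dotted line marks a 2-fold fall. Of the members, 196 lie below 0 on the vertical axis and 188 at or below the dotted line.

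The signal of most members went on falling through gastrulation. From stage 10.5 to stage 12, 110 members (55%) were at least 2-fold lower and 11 (5.5%) at least 2-fold higher, with a median change of -1.32 on the log2 scale. Among the eligible probes 16.2% were lower and 11.6% higher, with a median change of 0.02, and among all probes 11.8% were lower and 20.4% higher. Stage 10.5 was used by the rule, which selects for low values there. Of the 200 members, 156 were lower still at stage 12, against 6844 of the 13977 eligible probes and 15242 of all 43803 probes. At stage 12, 40 members were not well above background, or 20% of them, against 3.08% of the eligible probes and 31.2% of all probes. Of these 40, 33 were well above background again on at least 1 array from stage 15 to stage 40. Among the 146 members that were well above background on all 13 arrays, 29 had their lowest level at stage 10.5, 75 at stage 12, 12 at stage 15, and 6, 5, 3, 5 and 11 at stages 20, 25, 30, 35 and 40.

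After stage 12 the levels moved upward again. From stage 12 to stage 15, which were not used by the rule and lie on 1 slide, 88 members (44%) were at least 2-fold higher and 20 (10%) at least 2-fold lower. Among the eligible probes the order was the opposite, with 8.89% higher and 20.9% lower. Among all probes 15.3% were higher and 15.2% lower. At stage 12, 20% of the members were not well above background, against 3.08% of the eligible probes. The members thus had less room to measure lower. The median change was 0.77 for the members and -0.25 for the eligible probes. In the steps that followed, more members were at least 2-fold higher than at least 2-fold lower, except between stages 30 and 35, where these counts were equal. Between stages 15 and 20, which lie on different slides, 37 members were at least 2-fold higher and 10 lower, against 5.01% and 9.54% of the eligible probes. From stage 20 to stage 25 the counts were 22 higher and 6 lower (eligible probes 4.26% and 3.87%), and from stage 25 to stage 30 they were 12 and 5 (3.65% and 2.3%). From stage 30 to stage 35 they were 6 and 6 (1.47% and 2.12%), and from stage 35 to stage 40, again on different slides, 15 and 5 (2.84% and 1.77%). Over all probes 9.03% were higher and 10.6% lower from stage 15 to stage 20, and 8.06% and 5.83% from stage 20 to stage 25. The later steps had 7.52% and 3.95%, 4.06% and 3.83%, and 7.07% and 3.67%. From stage 20 onward more of all probes were thus higher than lower too. From stage 25 the members' shares higher, 6%, 3% and 7.5%, lay near those of all probes.

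The members approached their blastula level only in part. The number that stood at least 2-fold below stage 8 was 155 at stage 15, then 143, 140, 135 and 129 at stages 20, 25, 30 and 35, and lastly 130 at stage 40. The shares of eligible probes at least 2-fold below stage 8 were 35.4%, 40.4%, 41.2%, 40.5%, 41.5% and 42.5% at these stages. At stage 40, 22 members (11%) stood at least 2-fold above stage 8, against 19.1% of the eligible probes, as the plot of shares by stage shows.

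**Figure D3:**
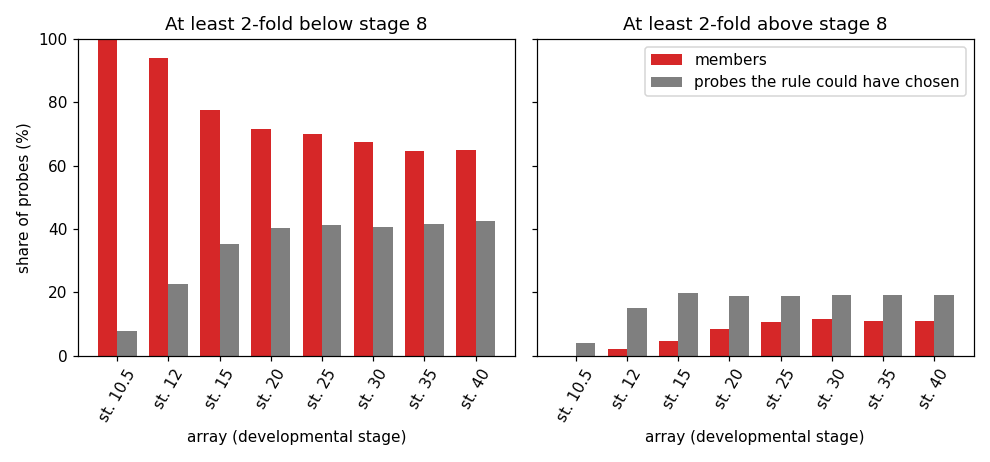
Share of probes (vertical axis, percent) that were at least 2-fold below (left) or above (right) their own level at stage 8, on each array from stage 10.5 to stage 40 (horizontal axis), for the 200 members and for the 13977 probes that the rule could have chosen. The share of members below stage 8 is highest at stage 10.5, which the rule used, is 94% at stage 12 and 65% at stage 40, whereas that of the eligible probes runs from 7.91% at stage 10.5 to 42.5% at stage 40.

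The 200 members differed widely in what followed. A member was said to return if its highest level from stage 15 to stage 40, on an array where it was well above background, was at least 2-fold above its level at stage 10.5. By this measure 94 members (47%) returned, on 72 accessions, and 106 (53%) stayed low, on 77 accessions. Of the eligible probes 28.8% met the same condition, and of all probes 38.8%; stage 10.5 is the array on which the members were chosen to be low, so nothing is read from the difference. The condition also depended on its reference, since 148 members were at least 2-fold above their level at stage 12 on some later array, against 24.4% of the eligible probes and 32.2% of all probes. With stage 10.5 levels raised to the dimmest signal called well above background on that array, 92 members returned. In the 49 accessions with 2 members, both members were of the same kind in all 49. Of the 94 that returned, 13 were highest at stage 15, while 15, 11, 7 and 11 peaked at stages 20, 25, 30 and 35, and 37 at stage 40.

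Members that stayed low had a median level of 1.37 at stage 9 and -0.94 at stage 10.5. Stage 12 was their lowest, at -3.21, and by stages 15 and 40 they were at -2.75 and -2.10. Members that returned started lower, at a median of -0.45 at stage 9, and went to -2.84 and -2.95 in the gastrula. By stage 15 they were at -1.50, and stage 40 had the value -0.53. Members were split by their highest level from stage 15 onward against stage 10.5. Their different changes from stage 10.5 to stages 15 and 40 thus follow from the split. The falls that chose them were of similar size, with a median change of -2.15 in those that stayed low and -2.25 in those that returned. A low level at stage 10.5 favors a return by this measure, so nothing is read from the lower start at stage 9. From stage 10.5 to stage 12 the median change was -1.98 in those that stayed low, of which 101 of 106 were lower at stage 12. In those that returned it was -0.36, and 55 of 94 were lower. The split used the same stage 10.5 level from which this change is measured, so nothing is read from the difference.

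**Figure D4:**
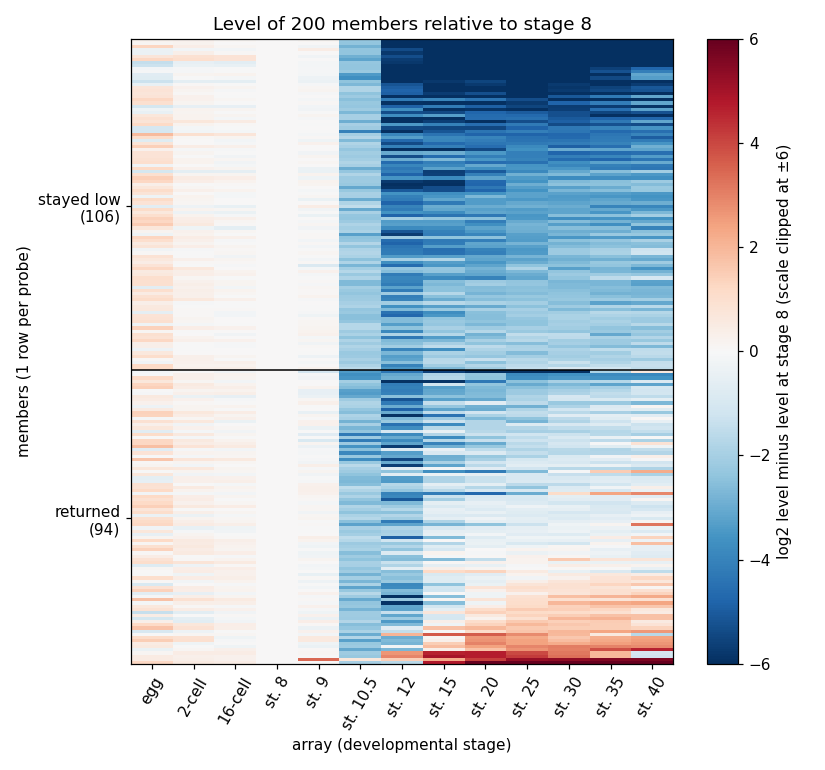
Log2 level of each of the 200 members (rows, 1 per probe) on the 13 arrays (columns, by stage), minus its own level at stage 8; blue is lower and red higher than at stage 8. The 106 members that stayed low are above the black line and the 94 that returned below it, each set ordered by its mean over stages 15 to 40. All rows turn blue at stage 10.5 except that of rank 27, and below the line many turn white or red after stage 12.

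Compared with the blastula, 34 members on 26 accessions later exceeded their stage 9 level at least 2-fold, by a median of 2.04 on the log2 scale, and 15 of these were highest at stage 40. Of the eligible probes 29.8% exceeded their stage 9 level in this way, and of all probes 41.0%. For another 55 members, against 46.5% of the eligible probes, the highest later level lay within 2-fold of that at stage 9. The remaining 111, against 23.7% of the eligible probes, stayed at least 2-fold below it or were not well above background. The rule favors high values at stage 9, so nothing is read from these differences between members and eligible probes. At the other end, 10 members were not well above background on any of the 6 arrays from stage 15 to stage 40, or 5% of members against 1.62% of the eligible probes and 17.2% of all probes. Their signals at stage 9 had ranged from 35.2 to 5916 units. Of the 106 that stayed low, 91 were well above background at stage 40, against 96.6% of the eligible probes and 79.5% of all probes.

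Individual courses show the range. The largest measured fall belonged to a probe of accession BC075122. Its level was -0.92 in the egg, -0.06 at the 2-cell stage, -0.03 at the 16-cell stage, 0.10 at stage 8 and 0.06 at stage 9, and it was -3.95 at stage 10.5. At stage 12 it was not well above background, and from stage 15 to stage 40 it measured -5.02, -4.28, -4.03, -4.25, -4.57 and -4.42. The 5 arrays up to stage 9 thus all lay above all later ones, with no overlap. This probe was named for its fall between stages 9 and 10.5, so the separation is only a description. A probe of BC044049, rank 2 by measured values, started from a dim signal of 100.1 units at stage 9. It was not well above background at stage 10.5 or stage 12, so that its fall is known only to be at least 4.35-fold, whereas the member of rank 3 was well above background on both arrays and fell 13.7-fold. Its level was -3.45 in the egg, -3.97, -5.0, -4.92 and -4.32 from the 2-cell stage to stage 9, and -4.61, -2.21, -2.50, -3.08, -2.67 and -2.42 from stage 15 to stage 40. Of the 6 late arrays, 5 therefore lay above the egg and all of the early arrays, and stage 15 lay among them. A second probe of BC044049, rank 69, was well above background at stage 10.5. It fell 5.08-fold and returned by 20.5-fold.

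The probes with the 2 largest measured returns began from dim signals. A probe of BC074489, rank 140, had levels of -5.02 in the egg and -5.75, -5.84, -6.27 and -6.27 from the 2-cell stage to stage 9. It was not well above background at stages 10.5 and 12, so that its fall was at least 1.13-fold. It then measured -1.45 at stage 15, then 1.65, 1.77, 0.64 and 1.2 at stages 20, 25, 30 and 35, and 2.41 at stage 40, at least 462-fold above stage 10.5. All 6 late arrays lay above all earlier ones, which is only a description, since this probe was named for its return. A probe of BC080404, rank 16, lay between -5.04 and -4.31 up to stage 9, was not well above background at stages 10.5 and 12, with a fall of at least 3.60-fold, and then stood higher on each array, from -4.27 at stage 15 and -2.87 at stage 20 to -1.96, -1.60, -0.76 and -0.01 at stages 25 to 40. The last value was at least 86.3-fold above stage 10.5. The member of rank 95, well above background at stage 10.5, returned by 145-fold. That of rank 24, a probe of the same accession, returned by 103-fold as measured, from a stage 10.5 signal not well above background. BC080404 is therefore not shown to be second.

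**Figure D5:**
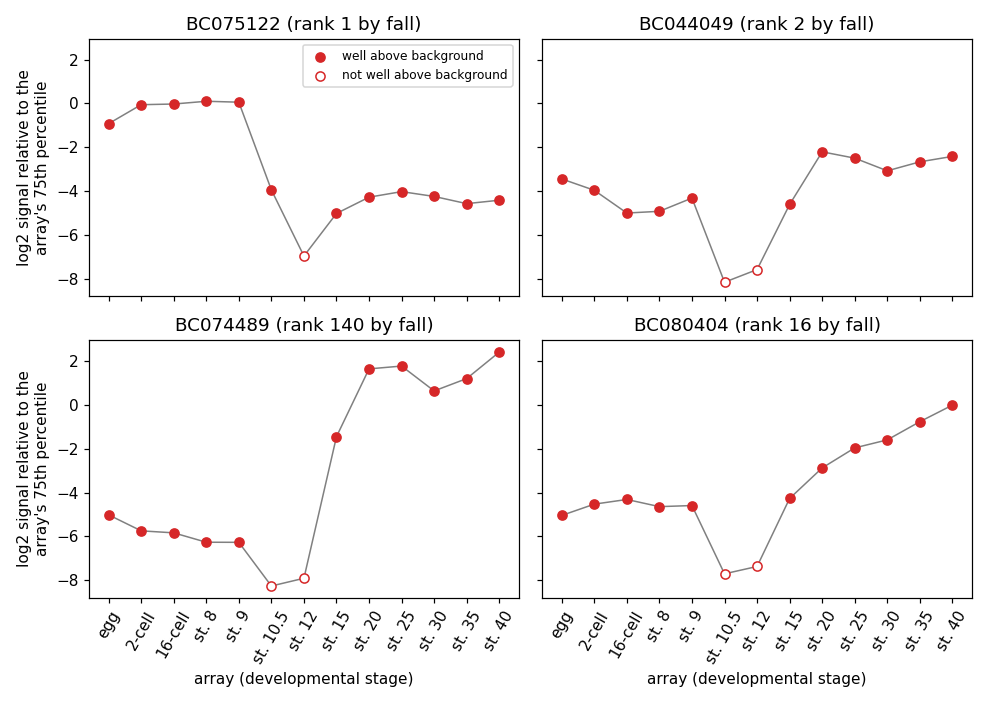
Normalized log2 level (vertical axis) on the 13 arrays (horizontal axis, by stage) of 4 probes, ranks 1 and 2 by the measured fall from stage 9 to stage 10.5 and the 2 with the largest measured return. For 3 of them stage 10.5 was not well above background, so that their order is not settled. Filled points were well above background and open points were not. BC075122 stays at or below -3.95 from stage 10.5 onward, and BC074489 reaches 2.41 at stage 40.

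Other courses, chosen after their values were seen, ran between these. The member of rank 32 was lower on each array after the 2-cell stage, with levels of 3.73, 3.66, 2.82 and 2.63 up to stage 9, -0.07 and -2.51 at the gastrula stages 10.5 and 12, and -3.59, -4.44 and -5.47 at stages 15, 20 and 25. From stage 30 it was not well above background. The member of rank 95, of the only accession with 3 members, instead rebounded within gastrulation. It lay at -3.99 at stage 9, -6.21 at stage 10.5 and -1.01 at stage 12, a 36.8-fold difference within the gastrula. It was highest at stage 15, at 0.96, and then lower on each array down to -5.11 at stage 40.

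A limma fit set late against early stages, with stages standing in for replicates. The 3 early arrays were the 2-cell stage, the 16-cell stage and stage 8, and the 6 late arrays stages 15 to 40. Neither stage 9 nor stage 10.5 entered. The rule did use the level at the 2-cell stage and required a signal well above background on all 3 early arrays. The fit is thus not wholly free of the rule, and the counts of members are a description. Of the 200 members, 144 (72%) were lower on the late arrays at an adjusted p of 0.05 (Benjamini-Hochberg over all 43803 probes), 11 (5.5%) were higher and 45 were neither. Over all probes 26.8% were lower and 30.5% higher. Over the eligible probes, which like the members had to be above background on the early arrays, 44.4% were lower and 20.4% higher. The median difference was -2.26 on the log2 scale for the members, -0.59 for the eligible probes and 0.29 for all probes. The split of calls depended on the scaling: of all probes called, 46.8% were lower on late arrays with the 75th percentile, 67.7% with the median, 63.4% with quantile normalization and 63.0% with normexp and quantile normalization. With the slide as a random block, 110 members were lower and 4 higher, against 22.4% and 10.2% of the eligible probes and 13.3% and 18.0% of all probes. The 3 early arrays share a slide that holds no late array, so that slide and stage cannot be told apart there.

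In the same fit BC075122 was lower on the late arrays by 4.43 ± 0.24 (SE; limma, adjusted p = 2.96e-07), with all 6 late arrays below all 3 early ones. It was named for its fall, and the rule required it to be well above background on these early arrays. Both can favor a lower late level, so its p-value is only a description. BC044049 was higher by 1.72 ± 0.52 (SE; limma, adjusted p = 0.0178), a call that was lost with each other scaling tried, with the slide as a block, and without the 16-cell stage (limma, adjusted p = 0.0736) or stage 8 (0.0692). BC074489 and BC080404 were named for their levels on late arrays, so their differences of 6.99 and 2.58 are a description with no test.

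Other probes of the same accessions were also read. Of the 149 accessions, 40 had 1 probe on the array and 109 had more. In 49 of these 109 all probes were members. The other accessions had 60 further probes that were not members, and 52 of these were well above background at stage 9. Of the 52, 50 were at least 2-fold lower at stage 10.5 and none was higher (0 of 52), with a median change of -1.75 on the log2 scale and a range from -3.77 to -0.50. Over all probes 6.11% were at least 2-fold lower in this step, and over the eligible probes 6.9%. The further probes were read on the same arrays as the members, for accessions chosen by a fall in this same step. Their count is therefore a description and not separate support for the fall. Only 28 of the 60 met the conditions on the egg and early stages. Within the 49 accessions with 2 members, the falls differed by a median of 0.12 and by up to 1.50 on the log2 scale, whereas the levels at stage 9 differed by a median of 0.68.

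Finally, 28 members (14%) stood at least 2-fold below each of the other 11 arrays at both stage 10.5 and stage 12, a dip limited to gastrulation. Of the eligible probes 0.315% did so, 44 in all, and of all probes 0.199%. The rule favors low values at stage 10.5, so this count is a description.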

How the data were processed

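The authors extracted total RNA with ISOGEN, labeled it with Cy3 and scanned 1 array per stage. The deposited scanner files (Agilent Feature Extraction 10.7.3.1) give for each spot an intensity corrected for background, the median intensity of the spot and of its local background, and quality flags. The deposited series table held the same intensity (587860 of 587860 values equal). Of 45220 spots, 1417 controls were left out. The processed intensity was divided by the 75th percentile of its array, after the study's methods, and log2 was taken; no value was under 1 and none was saturated. Different probes of an accession were kept apart.

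Members were found as stated in the report. The members and lists were chosen with earlier results of these data known. Genes were to be named from lists, but the accessions carry no names here, so the accessions with the 2 largest falls and the 2 largest returns in the measured values, dim signals included, were named. The gene lists were not used. Two-sided tests were made with limma 3.58.1 in R 4.3.3 (lmFit, eBayes, Benjamini-Hochberg), checked on simulated data; counts were made with Python 3.11.15, numpy 2.4.6 and pandas 2.3.3, and plots with matplotlib 3.10.9. Alternatives were other scalings (median, quantile, 7 spike-in probes), normexp (offset 50), filters on dim probes, a 4-fold limit, the slide as a block and leaving out single arrays. A level raised to the detection limit for the return, members without non-uniform spots and means per accession were chosen after seeing the data. Since stages stand in for replicates, p-values set the difference between the groups against the spread between stages within them. That spread also holds change between stages.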

Additional observations from a re-analysis of the deposited data

Results flagged for a closer look

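The values of the 200 members (median level and share well above background) and of the 4 named probes were examined for single arrays that stood apart, within the 4 early arrays and within the 6 late arrays. In 1 of 12 groups of values the gap to the nearest array exceeded Dixon's 95% value. It was the probe of BC044049 at stage 15, at -4.61, when the other late arrays lay between -3.08 and -2.21. Stage 15 is the earliest of the late stages and the only late array on the second slide. Chance flags about 1 in 20 groups of replicates, but these arrays are different stages, so that rate is only a guide. The members' share well above background was 100% on each early array by the rule, so that group could not be flagged.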

How the results depend on the processing

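Which probes were chosen depended on the processing. Of the 200 members, 169 were also chosen with scaling to the median and with the mean of the 4 early arrays in place of stage 9, and 192 with stage 10.5 raised to the detection limit, but 130 with quantile normalization, 112 with normexp, 91 with no limit on the egg against the 2-cell stage and 60 with spike-in scaling. The last left 9944 probes to choose from. The count of returning members, 94, was 148 against stage 12, 126 with spike-in scaling, 92 with stage 10.5 raised to the detection limit and 64 with a 4-fold limit. From stage 8 to stage 12, between 173 and 195 members were lower under every setting that kept all members; 4 were higher, or 2 accessions. Over all probes, 6944 were lower, or 12745 with the median, 11845 with quantile normalization, 11932 with spike-in scaling and 2802 with a 4-fold limit; 10985 were higher, or 7090 with the median, 5282 with normexp and 6259 with a 4-fold limit. From stage 12 to stage 15, 20 members were lower and 88 higher, or 3 and 58 with normexp and 7 and 34 with a 4-fold limit; over all probes 6665 and 6720, or 3721 and 3877 with normexp and 1470 and 2645 with a 4-fold limit. A higher limit leaves fewer calls by construction; the cause of the other changes was not tested.

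In limma, 25127 probes were called, and 13704 with the slide as a random block. With the other scalings, between 124 members (spike-in, 22.7% of all probes lower) and 167 members (median, 43.0%) were lower. With 1 array left out, 131 to 151 members and 22.7% to 29.4% of all probes were lower (21421 to 26918 probes called). BC044049 turned to -0.29 on the log2 scale with stage 9 added to the early group and the slide as a fixed block. In that setting only the second slide holds both an early and a late array. The value is therefore the level at stage 15, -4.61, against that at stage 9, -4.32, and says nothing of the other late arrays. Stage 9 was used by the rule, and stage 15 is the array that stood apart for this probe. No paired analysis was possible because no stage was measured more than once. Signal near background limits the falls of the 13 members not well above it at stage 10.5.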
